A study of Mus musculus with 28 samples.

Results

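The 8 RNA libraries described here are labelled as Cre-free controls of 2 floxed mouse lines, out of 28 samples in the series, of which 19 are RNA libraries. They were chosen by their labels alone: 4 controls of the line called Yap active, with the genotype Stk3flox/flox/Stk4flox/flox, and 4 controls of the line called Yap deleted, with the genotype Yapflox/flox. Their counterparts, used here only for reference, carried SftpcCreert2 on the same floxed genotypes, 6 in the active line and 5 in the deleted line. SftpcCreert2 is a tamoxifen-inducible recombinase driven by the surfactant protein C gene, whose activity centres on alveolar type 2 (AT2) cells. Recombination was set for postnatal day 3, and lungs of all groups were taken at postnatal day 14. Magnetic beads removed cells bearing CD31, CD45, CD271, CD90.2, Ter119 or CD16/32, and the rest were selected for Epcam (CD326), and poly(A) RNA was sequenced. The labels name the cell type AT2 and give the controls the status of their line, although their genotype labels hold no Cre. They do not give the inbred background, sex, litter, inducing agent, whether the controls received it, or which animal each library is from, and p-values therefore measure only how these libraries spread. Each line was deposited as its own table, so line and table cannot be told apart, nor can any handling the tables do not share.

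MST2 and MST1, the kinases made from Stk3 and Stk4, head the Hippo pathway and act through LATS kinases and MOB1 adaptors to keep the coactivator Yap out of the nucleus. Surfactant comes from AT2 cells, which are also the source of alveolar type 1 (AT1) cells, the thin cells of gas exchange, and at this age the alveoli are still being formed. An unrecombined floxed allele is meant to leave its gene working, so a comparison of Cre-free controls reads line, sort and library rather than loss of the gene. Floxed alleles are made in stem cells of one mouse strain and crossed into another, and a stretch of the donor strain's chromosome can remain beside the allele.

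Depth was 36.7 to 39.96 Mcounts (mega-counts) in the active controls and 31.95 to 35.6 Mcounts in the deleted controls, over 17207 to 18243 genes with counts. Sftpc, the defining AT2 gene, was high in all 8 (7172 to 83230 CPM, counts relative to the scaled library size), and its ranges overlapped. Xist, transcribed from the inactive X of females, marked active control 4 (445 CPM) and deleted control 3 (322 CPM), against 1.46 to 3.02 CPM in the other 6. Within each line the 4 controls did not all cluster together: active controls 1 to 3 grouped with the Cre-carrying active library 1, deleted controls 1 and 2 formed a cluster of their own, and active control 4 and deleted controls 3 and 4 lay with the Cre-carrying libraries of their lines. These clusters were read from the same counts after the data were seen, and are used below as a description and as a covariate. Fits of the lines within a cluster appear only among the alternative fits at the end.

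Esr1 bears on whether the controls are Cre-free, because the inducible Cre is fused to a piece of estrogen receptor, and reads of the fusion can fall on this gene. Control 2 of each line carried such reads, at 165 CPM in the active line and 82.4 CPM in the deleted line. The other 6 controls held 0.929 to 3.93 CPM. The Cre-carrying libraries held 213 CPM or more, save active library 1 at 2.04 CPM. The 2 controls with Esr1 reads were kept under their labels, and counts without them are given below.

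Among the floxed genes, Stk3 lay at 55.9, 51.7, 56.6 and 34.0 CPM in active controls 1 to 4 and at 38.7, 35.5, 22.4 and 19.3 CPM in deleted controls 1 to 4. Active control 4 was the lowest of its line and lay below deleted controls 1 and 2, so the groups overlapped. The difference was 0.74 ± 0.28 (log2 fold change, active minus deleted, ± SE) with an adjusted p of 0.347. Across all 19 libraries Stk3 was higher in the active line (0.68, adjusted p = 0.0109), the line in which it is floxed. The library labelled Cre-carrying active 1, which lacks Esr1 reads and clustered with active controls 1 to 3, held 51.1 CPM of Stk3, and the other 5 Cre-carrying active libraries 31.7 to 35.6 CPM. Cre-carrying deleted libraries held 20.02 to 26.6 CPM.

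Stk4 overlapped between the lines, with 108, 109, 116 and 120 CPM in the active controls and 134, 120, 88.7 and 103 CPM in the deleted controls. Yap1, unrecombined in both sets of controls by their labels, lay at 201, 212, 216 and 177 CPM in the active line and at 205, 112, 169 and 183 CPM in the deleted line. Deleted control 2 was the lowest of the 8 and lay within the 77.1 to 138 CPM of the Cre-carrying deleted libraries. It is also the deleted control with Esr1 reads, and of the 8 it held the least Epcam (89.5 CPM) and the most Ptprc (179 CPM). The cause of its low Yap1 was not tested. Active control 2, with Esr1 reads too, held 51.7 CPM of Stk3, above the Cre-carrying active libraries with Esr1 reads (31.7 to 35.6 CPM). Active control 4, with 0.963 CPM of Esr1, lay within that range at 34.0 CPM of Stk3. Mob1b, an adaptor of the LATS kinases, was the member of the Hippo list whose 8 control values separated, at 52.9, 66.1, 68.3 and 65.4 CPM against 47.9, 27.5, 34.6 and 50.7 CPM (log2 fold change 0.64 ± 0.21 SE, adjusted p = 0.310). Of the 20 genes of the Hippo and Yap list, 9 were on the higher and 11 on the lower side in the active controls (median −0.01, against 0.01 over all genes tested), and 0 were called. Of 25 Yap target genes, 7 were on the higher side and 18 on the lower, with a median of −0.06 and 0 called. At an unadjusted p under 0.05 there were 2 genes of the first list, Stk3 and Mob1b, and 0 of the second.

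**Figure D1:**
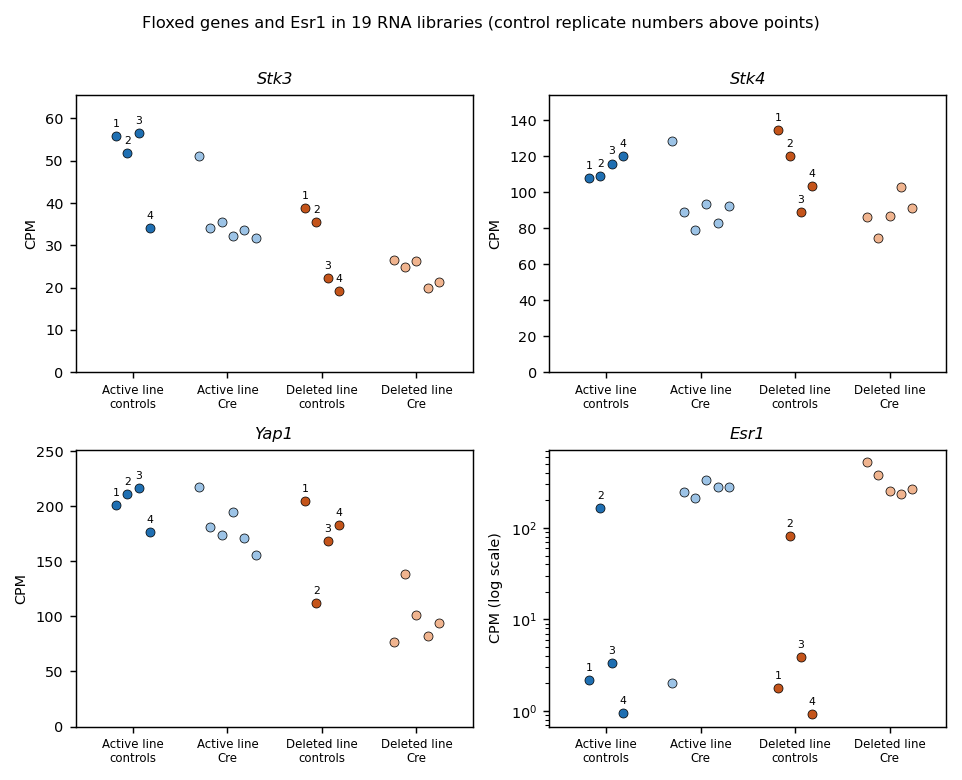
CPM of Stk3, Stk4 and Yap1 (linear axes) and Esr1 (log axis) in each of the 19 RNA libraries by group, 1 point per library, with replicate numbers above the control points. Stk3 is lower in both deleted-line groups than in active controls 1 to 3, and in Esr1 control 2 of each line (165 and 82.4 CPM) stands above the other controls.

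Between the 2 groups of controls, 3 genes of 15832 passed the test (0.0189%), all higher in the active line: Nrn1, Zfp949 and BC018473. Nrn1, which encodes the cell-surface protein neuritin, lay at 46.9, 66.2, 62.8 and 56.8 CPM in active controls 1 to 4 and at 6.85, 8.997, 10.6 and 13.97 CPM in deleted controls 1 to 4. The groups lay far apart, with a log2 fold change of 2.52 ± 0.23 (SE) and an adjusted p of 0.0261. In the Cre-carrying libraries the gap was narrower and the ranges overlapped (12.1 to 55.8 CPM in the active line, 16.6 to 37.7 CPM in the deleted line, adjusted p = 0.240).

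Zfp949, a zinc finger gene, held 50.0, 48.5, 46.6 and 36.7 CPM in the active controls and 16.7, 15.4, 18.04 and 15.9 CPM in the deleted controls (log2 fold change 1.44 ± 0.14 SE, with an edgeR adjusted p = 0.0261). The deleted controls were nearly level, and the same level held in the Cre-carrying deleted libraries, at 15.4 to 17.4 CPM. The Cre-carrying active libraries spread from 16.9 to 44.6 CPM, and the difference passed the test there as well (0.90, adjusted p = 0.0325). Zinc finger genes of this family have close relatives, and the treatment of shared reads in counting is not known.

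BC018473 was present in 1 line and almost absent in the other. It had 249, 1266, 363 and 789 counts in active controls 1 to 4 and 2, 0, 0 and 0 counts in deleted controls 1 to 4 (adjusted p = 0.0470). The pooled ratio was 1200 with a 95% counting interval of 332 to 9920, which covers counting error only. All 5 Cre-carrying deleted libraries were at 0 CPM, while the Cre-carrying active libraries ran from 0 to 12.7 CPM, the last 3 of them at 0.0321 CPM or less.

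Between the controls 1094 genes (6.91%) had ranges that did not overlap, 647 higher (4.09%) and 447 lower (2.82%). Beyond the 3 called genes, 1897 genes (12%) had an unadjusted p under 0.05, and by the smallest p values on the higher side came Cybrd1 and Fbp2. Cybrd1, a ferric reductase of iron uptake, lay at 60.3, 76.8, 78.5 and 57.9 CPM in the active controls and at 28.9, 25.9, 33.9 and 32.0 CPM in the deleted controls (log2 fold change 1.16 ± 0.15 SE, adjusted p = 0.130). Fbp2, the muscle form of the gluconeogenic enzyme fructose bisphosphatase, lay at 52.0, 77.2, 43.5 and 9.82 CPM against 0.547, 1.003, 1.37 and 2.23 CPM (5.13 ± 0.69 SE, adjusted p = 0.147). Both were separated between the lines in the Cre-carrying libraries too, where each passed the test, as did 5.19% of all genes, 3.32% higher and 1.87% lower (1.05, adjusted p = 0.0258 for Cybrd1 and 3.79, adjusted p = 0.0132 for Fbp2).

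On the lower side 0 genes were called. The 5 with the smallest p were Trpv4, a calcium channel that senses osmotic and mechanical stress, the mucosal chemokine Ccl28, the retinoic acid receptor Rara, the cadherin Cdh22, and Gpr44, a prostaglandin D2 receptor. Rara lay at 53.2, 49.4, 48.1 and 48.5 CPM in the active controls and at 79.8, 95.3, 95.4 and 80.4 CPM in the deleted controls (log2 fold change −0.83 ± 0.12 SE, adjusted p = 0.173). Ccl28 lay at 0.510, 0.324, 0.763 and 0.880 CPM against 4.61, 4.20, 3.88 and 4.40 CPM (−2.79 ± 0.39 SE, adjusted p = 0.147). Each group was tight for both genes, and the Cre-carrying groups differed in the same direction with a call (Rara −0.58, adjusted p = 0.0101, Ccl28 −3.16, adjusted p = 0.0205). In the Cre-carrying groups Trpv4 (−0.96, adjusted p = 0.0735) and Gpr44 (−0.43, adjusted p = 0.672) did not pass the test and their ranges overlapped, while Cdh22 passed (−5.33, adjusted p = 0.0132). Between the controls, Trpv4 (−1.65 ± 0.22 SE) held 2.17 to 2.91 CPM against 7.09 to 8.67 CPM, and Cdh22 (−3.87 ± 0.63 SE) 0.110 to 0.459 CPM against 1.24 to 6.48 CPM.

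The count of calls differed between methods. DESeq2 called 223 genes higher and 576 lower on the same libraries, and edgeR with the library cluster as a covariate called 731 (4.62%), 159 higher (1%) and 572 lower (3.61%). In contrast, leaving out any one of active controls 1, 2 or 3 or deleted controls 1, 2 or 3 left 0 calls, at 1296 to 1997 genes with an unadjusted p under 0.05. The clusters were found in each line separately, and the covariate gives active controls 1 to 3 the same value as deleted controls 1 and 2. These libraries need not share a property: their endothelial sums were 280 to 790 CPM in the active controls and 4207 and 3338 CPM in the deleted controls.

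The lines could also be compared over all 19 RNA libraries, where a difference that a line or table carries should appear with and without Cre. Here 845 genes were called higher in the active line (5.18% of 16308) and 921 lower (5.65%). The contrast averages the difference between the controls and the difference between the Cre-carrying groups. A gene can therefore be called from the Cre-carrying groups alone, which also differ in the floxed genes to be lost. Yap1 was such a gene, with edgeR adjusted p of 0.685 between the controls, 0.0112 between the Cre-carrying groups and 0.00948 over all libraries. In 87 genes (0.533%) the 10 active-line and the 9 deleted-line libraries did not overlap at all, 57 of them higher (0.35%) and 30 lower (0.184%) in the active line, and 86 of these were called (0.527%). By ranges of the controls alone, 1120 of these genes (6.87%) did not overlap, 4.02% higher and 2.85% lower. By ranges of the Cre-carrying libraries alone it was 1024 (6.28%), 3.54% higher and 2.73% lower. These 2 comparisons share no library, and 148 genes were in both with the same direction (13.2% of the first and 14.5% of the second) while 1 was in both with opposite directions.

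Among genes higher in the active line and separated in all 19 libraries, Psca, a membrane-anchored surface antigen, lay at 2.57, 6.45, 2.12 and 42.2 CPM in the active controls and at 0.156, 0.0271, 0.342 and 0.124 CPM in the deleted controls (all-library log2 fold change 6.57, adjusted p = 0.00035). Dclk1, a kinase linked to microtubules, held 35.05, 33.5, 43.5 and 39.2 CPM against 19.1, 9.19, 13.1 and 14.7 CPM (1.65, adjusted p = 1.48e-05). C1galt1, which builds the core 1 O-glycan of mucin-type glycoproteins, held 53.4, 80.9, 80.2 and 56.1 CPM against 35.3, 16.99, 24.7 and 18.3 CPM (1.15, adjusted p = 0.00053). Fbp2, Cybrd1, the histone gene Hist1h2bc, the bHLH factor Arnt2, the glycerol kinase Gyk, Tcp11l1 and the autophagy gene Trp53inp2 were the others of the 10 named on this side. Hist1h2bc belongs to a family of near-identical genes, so its level is uncertain.

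On the lower side, Bfsp1, a filament protein best known from the lens, lay at 2.55, 3.29, 2.34 and 2.26 CPM in the active controls and at 6.14, 7.70, 5.79 and 9.91 CPM in the deleted controls (all-library log2 fold change −1.93, adjusted p = 2.19e-05). Naaa, a lysosomal amidase, held 21.9, 14.7, 19.4 and 8.64 CPM against 25.2, 47.0, 29.5 and 31.8 CPM (−1.19, adjusted p = 0.00254). The kinesin Kif21b (−0.96), the tyrosine kinase Fes (−1.19), the scaffold gene Caskin1 (−0.94), D3Ertd751e (−1.71), Gm16907 (−1.33) and Neurl2 (−1.07) followed the same pattern. Pisd-ps1 (−1.17) and Pisd-ps3 (−1.27) did too, but as copies of one parent gene their reads cannot be assigned with certainty. Fes also stood high in deleted controls 1 and 2 (25.7 and 57.1 CPM, against 5.45 to 14.7 CPM in the other 6), the libraries rich in leukocyte RNA described below.

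**Figure D2:**
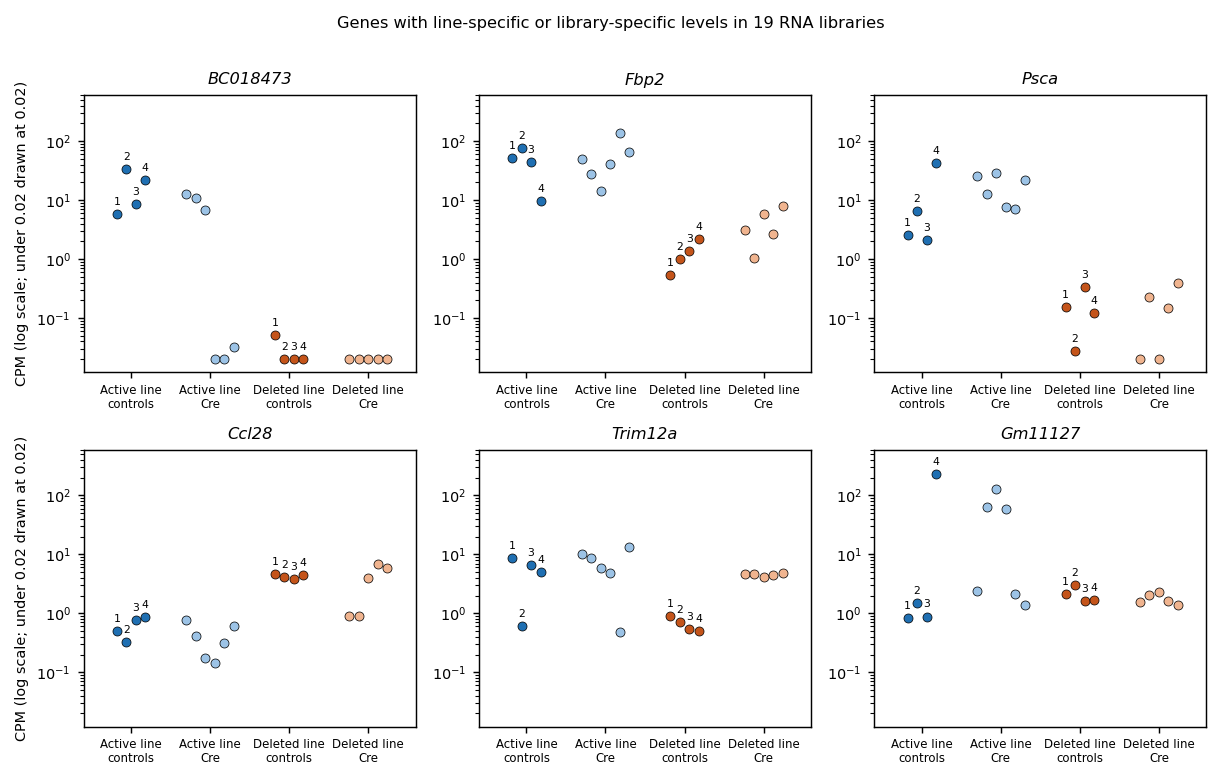
CPM (log axis, values under 0.02 drawn at 0.02) of 6 genes in each of the 19 RNA libraries by group, with replicate numbers above the control points. Fbp2, Psca and Ccl28 separate the lines in all 4 groups, BC018473 is present in all active controls and at or near 0 in the deleted line, and Trim12a and Gm11127 each split within a group.

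Genes beside the floxed alleles were examined by position, in the RefSeq annotation of GRCm38.p6 (mm10). Stk3 lies on chromosome 15 at 34875499 to 35155882, Stk4 on chromosome 2 at 164074113 to 164155524 and Yap1 on chromosome 9 at 7931999 to 8004638. Of the 25 tested genes on either side of Stk3, 11 of 50 (22%) were called over all libraries, 3 higher and 8 lower in the active line, against 10.8% of all genes. Around Stk4 the count was 10 of 50 (20%), 1 higher and 9 lower. Around Yap1 it was 4 of 45 (8.89%), 2 in each direction. Between the controls alone 0 of these neighbours were called, and 11, 6 and 6 had an unadjusted p under 0.05 (22%, 12% and 13.3%). Of all genes tested between the controls 12% did, so there the share around Stk4 was that of all genes.

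Snx31, which encodes a sorting nexin and starts 1.63 Mb from Stk3, had the largest all-library log2 fold change of these neighbours (−7.32). Its counts were 0, 2, 0 and 0 in active controls 1 to 4 and 25, 17, 129 and 40 in deleted controls 1 to 4. That is a pooled ratio of 117 in favour of the deleted line, with a 95% counting interval of 32 to 974, which covers counting error only. The 6 Cre-carrying active libraries were all at 0 and the 5 Cre-carrying deleted libraries at 0.609 to 1.30 CPM (all-library adjusted p = 0.00035). Closer to Stk3, Hrsp12 lay at 14 to 22.2 CPM against 6.499 to 11.9 CPM, without overlap (0.99 ± 0.27 SE between the controls, adjusted p = 0.279). Ankrd33b, 3.58 Mb from Stk3 on the same side as Hrsp12, lay the opposite way, at 26.3, 28.7, 32.8 and 11.1 CPM against 74.2, 41.0, 51.5 and 46.0 CPM (−1.13 ± 0.33 SE, adjusted p = 0.287).

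Near Stk4, some genes of the whey acidic protein (WFDC) cluster differed, in both directions and at low levels. Others of the cluster were not called over all libraries. Among these were the abundant Wfdc2 (360 to 1346 CPM in the 8 controls, −0.18, adjusted p = 0.752), Slpi, Wfdc12 and Wfdc16. Wfdc5, which starts 0.102 Mb from Stk4, was higher in the active line in every library (0.719, 1.35, 0.597 and 1.38 CPM against 0.234, 0.108, 0.342 and 0.0619 CPM in the controls, all-library log2 fold change 2.58, adjusted p = 0.00501). Wfdc3, Wfdc8 and Wfdc13 were lower in the active line (−1.80, −2.25 and −2.53 over all libraries, adjusted p = 0.0342, 0.0403 and 0.00125), at 0 to 0.417 CPM in the active controls and 0.163 to 2.42 CPM in the deleted controls. Pkig, an inhibitor of protein kinase A, held 17.2, 12.9, 13.6 and 14.6 CPM against 23.3, 33.4, 24.3 and 26.8 CPM (−0.88, adjusted p = 0.00125), and Neurl2 4.20, 2.43, 3.63 and 2.45 CPM against 5.16, 4.42, 6.93 and 4.40 CPM. Within 10 Mb of the start of Stk4, 6 of 207 tested genes were called over all libraries and separated in all 19 (2.9%): Cdh22, Gtsf1l, Neurl2, Pkig, Trp53inp2 and Wfdc5. The share was 1 of 73 (1.37%) around Stk3, which was Snx31, and 0 of 52 around Yap1, against 0.527% of all genes. Chromosome 2 held 18 of the 86 genes both called and separated, 1.42% of its tested genes. Apart from the 6 near Stk4, these lay more than 10 Mb from it. For example, D330023K18Rik starts at 31151049, Cybrd1 at 71118054 and Bfsp1 at 143826528, against 164074113 for Stk4.

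**Figure D3:**
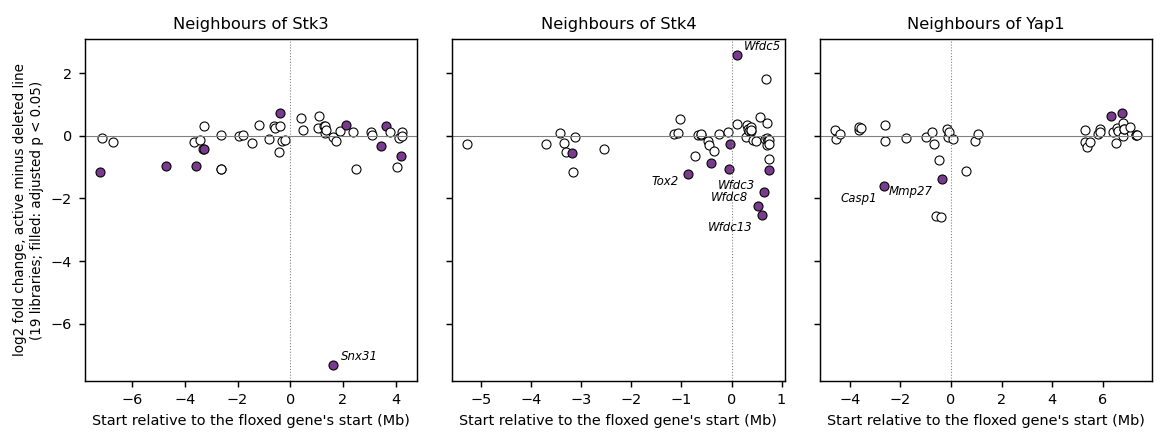
Log2 fold change between the lines over 19 RNA libraries (active minus deleted) of up to 25 tested genes on either side of Stk3, Stk4 and Yap1, by distance of gene starts in Mb. Filled points passed the adjusted p threshold of 0.05. Snx31 lies at −7.32 beside Stk3, and near Stk4 the filled points other than Wfdc5 lie below 0.

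Some genes were at different levels within a line rather than between the lines. Trim12a, a member of a cluster of antiviral TRIM genes that varies among inbred mice, lay at 8.62, 0.621, 6.56 and 4.98 CPM in active controls 1 to 4 and at 0.885, 0.705, 0.542 and 0.495 CPM in deleted controls 1 to 4. Active control 2 thus stood with the deleted controls (log2 fold change 2.95 ± 0.71 SE, with an edgeR adjusted p = 0.277). The Cre-carrying deleted libraries held 4.18 to 4.8 CPM, above the controls of their own line.

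In active control 4, genes of the major histocompatibility complex stood out from the other 7 controls. These genes present peptides to T cells and differ among mouse strains. Gm11127, a class I gene on chromosome 17, lay at 232 CPM there and at 0.835 to 2.98 CPM in the other controls, and in 3 Cre-carrying active libraries it was high too (127 CPM at most). H2-K2 lay at 99.1 CPM against 1.88 to 12.7 CPM, H2-D1 at 987 CPM against 123 to 356 CPM, H2-K1 at 1681 CPM against 322 to 866 CPM and H2-Q4 at 470 CPM against 50.3 to 236 CPM. The class II gene H2-DMb2 was at 63.2 CPM against 3.37 to 11.8 CPM, and H2-Aa, H2-Ab1 and H2-Eb1 at 756, 529.5 and 529.9 CPM against at most 299.7, 233 and 156 CPM. B2m, the partner chain of class I on another chromosome, was not highest there: active control 4 held 259 CPM and deleted controls 1 and 2 held 385 and 569.9 CPM. Class I genes share long stretches of sequence, so reads may be split among them. Of 43 strain-variable genes tested, 0 were called between the controls, 20 lying higher and 23 lower in the active controls. With the library cluster as a covariate 1 was called higher and 5 lower, against 1% and 3.61% of all genes, namely Alad on the higher side and Gbp2b, Naip5, Naip6, Gpnmb and Ifi203 on the lower. Naip5 and Gpnmb are also expressed by macrophages, and Naip5 lay at 0.0550 to 1.34 CPM in the active controls and at 9.81, 33.9, 0.627 and 4.83 CPM in deleted controls 1 to 4. Ifi203 was likewise high in deleted controls 1 and 2 (41.5 and 42.5 CPM, against 0.228 to 4.37 CPM in the other 6). The part of leukocyte or endothelial RNA in these values was not tested.

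Some transcripts were much lower in 1 or 2 controls than in the rest. Airn, a noncoding transcript of chromosome 17 that is imprinted, was at 0 CPM in deleted control 1 and at 3.80 to 7.12 CPM in the other 7. AI506816 was at 0.139 CPM in active control 1 and 0.124 CPM in deleted control 4, and at 3.79 to 16.9 CPM in the other 6. In deleted control 4, Egfem1 (1.98 CPM against 17.5 to 95.3 CPM), Trim67 (3.93 against 33.2 to 126 CPM) and Greb1 (0.619 against 5.34 to 52.3 CPM) were low. These 5 genes were named after their values were seen, from 75 genes at a mean of at least 4 CPM whose 8 control values fell into 2 levels at least 3 log2 units apart.

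RNA of cell types that the sort was to remove was present in some controls. In bulk RNA, fewer cells of a type and less RNA per cell cannot be told apart. Pecam1, the CD31 antigen on which endothelial cells were to be removed, lay at 20.5, 4.803, 43.1 and 0.935 CPM in active controls 1 to 4 and at 308, 232, 5.56 and 12.6 CPM in deleted controls 1 to 4. Deleted controls 1 and 2 held far more than the other 6, and deleted control 3 less than active controls 1 and 3 (log2 fold change −3.08 ± 1.46 SE, adjusted p = 0.457). Ptprc, the CD45 antigen of leukocytes, lay at 4.43, 1.92, 10.8 and 0.468 CPM against 55.2, 179, 3.76 and 19.4 CPM (−3.93 ± 1.28 SE, adjusted p = 0.305). Fcgr3, an antigen of CD16/32, was at 0.881, 1.27, 3.17 and 0.550 CPM against 8.12, 38.9, 2.85 and 9.41 CPM. Fcgr2b, the other CD16/32 antigen, was at 0.193 to 0.644 CPM against 0.684 to 18.9 CPM, ranges that do not overlap. Thy1, the CD90 antigen, peaked at 42.4 CPM in deleted control 2, and Ngfr, the CD271 antigen, stayed between 0.0825 and 1.54 CPM. Epcam, on which cells were kept, lay at 159, 187, 168 and 240 CPM against 107, 89.5, 183 and 169 CPM, lowest in deleted controls 1 and 2 (0.46 ± 0.26 SE, adjusted p = 0.532).

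All 25 endothelial genes were on the lower side in the active controls (median log2 fold change −3.09), with 0 called and 13 at an unadjusted p under 0.05. Their summed level was 502, 280, 790 and 282 CPM in active controls 1 to 4 and 4207, 3338, 358 and 385 CPM in deleted controls 1 to 4. Deleted controls 1 and 2 were the high ones, and without them the median was positive. Kdr, a VEGF receptor that some AT1 cells also express, ranged less (29.3 to 84.1 CPM against 53.3 to 224 CPM), while Plvap, of fenestrated and lung capillary endothelium, ranged from 2.12 to 21.1 CPM against 6.13 to 193 CPM. Over all libraries 4 of the 25 were called lower, against 5.65% of all genes.

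The 3 leukocyte lists had the lowest medians of the 29 lists. Of 24 macrophage and monocyte genes, 23 were on the lower side in the active controls (median −3.74), 10 of them with no overlap between the groups against 2.82% of all genes on that side. None was called between the controls by edgeR, with 20 at an unadjusted p under 0.05, and 15 were called lower over all libraries (against 5.65%). Itgax, the CD11c integrin of alveolar macrophages, lay at 1.16, 0.944, 1.81 and 0.385 CPM against 14.4, 46.9, 3.93 and 14.9 CPM (−4.26 ± 0.81 SE, adjusted p = 0.248). Spi1, a master factor of myeloid cells, lay at 1.60, 1.16, 3.63 and 0.880 CPM against 19.5, 74.2, 5.64 and 25.02 CPM (−4.14 ± 0.84 SE, adjusted p = 0.267). Cd68 was at 4.66 to 8.01 CPM against 13.6 to 40.8 CPM, and Siglec5 at 0.165 to 0.811 CPM against 2.68 to 13.3 CPM. These 4 genes were higher in all 4 deleted controls than in any active control, and the median of the list stayed negative in all 24 alternative fits (−4.34 to −1.49). The lysozyme gene Lyz1, the exception on the higher side, lay at 781 to 5863 CPM and took 1796 of the summed 1917 CPM in active control 1 and 842 of 2014 CPM in deleted control 2, so the sum of this list is not used.

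Neutrophil and lymphocyte genes peaked in deleted control 2. S100a8, a calcium-binding protein of neutrophils, lay at 0.330 to 2.39 CPM in the active controls and at 18.2, 191, 0.513 and 4.24 CPM in deleted controls 1 to 4. Mmp9 followed with 0.110 to 0.811 CPM against 7.32, 77.9, 0.456 and 4.12 CPM. The B cell gene Ms4a1 lay at 0.110 to 2.43 CPM against 14.97, 43.4, 0.0570 and 0.867 CPM, and Cd3e of T cells was at 0 CPM in active controls 2 and 4 and deleted control 3 and at 11.1 CPM in deleted control 2. Neither list had a call between the controls (11 of 12 and 5 of 10 at an unadjusted p under 0.05).

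**Figure D4:**
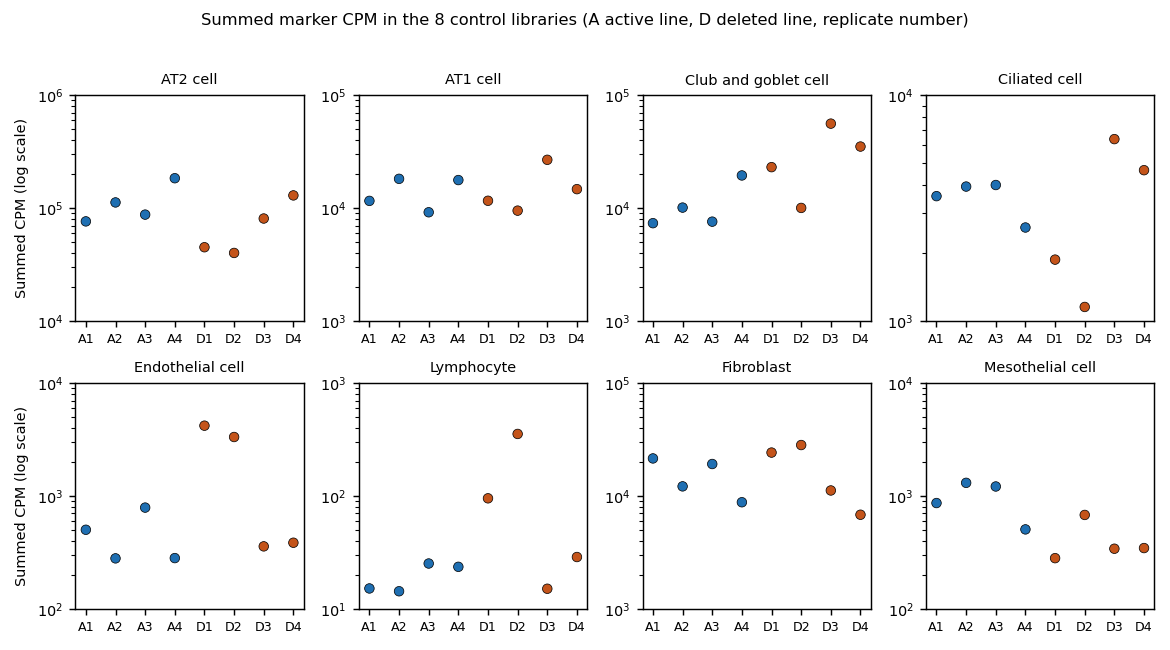
Summed CPM (log axes) of the marker genes of 8 cell types in the 8 control libraries (A, active line; D, deleted line; replicate number). Endothelial sums of D1 and D2 (4207 and 3338) lie above the 280 to 790 of the other 6 controls, AT2 sums are lowest in D1 and D2, and club cell sums are highest in D3 and D4.

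AT2 genes were on the higher side in the active controls, all 29 of 29, with a median log2 fold change of 0.64 and 0 called (10 at an unadjusted p under 0.05). Their summed level was 76190, 112200, 87490 and 184000 CPM in active controls 1 to 4 and 44940, 39990, 80790 and 129500 CPM in deleted controls 1 to 4, so the groups overlapped and deleted controls 1 and 2 were lowest. Il33, an alarmin cytokine made by AT2 cells, lay at 311, 535, 468 and 365 CPM against 170, 172, 159 and 210 CPM (1.23 ± 0.20 SE, adjusted p = 0.227). It was higher in the active line over all libraries (1.31, adjusted p = 0.000415) and in the Cre-carrying groups (1.42, adjusted p = 0.0104). Lamp3, of the lamellar body membrane, lay at 2004, 3323, 2588 and 2368 CPM against 1161, 1097, 1025 and 1791 CPM (1.003 ± 0.27 SE, adjusted p = 0.277). Ctsh, a protease that processes surfactant protein B, held 362, 637, 382 and 889 CPM against 150, 155, 287 and 314 CPM. The fatty acid ligase Acsl4 and the secreted protein Egfl6 were separated as well (533 to 916 CPM against 259 to 425 CPM, and 444 to 598 CPM against 198 to 301 CPM).

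Sftpc and Abca3 overlapped between the groups. Sftpc lay at 18330, 12000, 18830 and 83230 CPM against 9867, 7172, 30230 and 44710 CPM (0.56 ± 0.82 SE, adjusted p = 0.865), and Abca3, the lamellar body lipid transporter, at 1256, 2386, 1768 and 3314 CPM against 1044, 753, 1651 and 2753 CPM (0.50 ± 0.46 SE, adjusted p = 0.759). Both turned negative when deleted controls 1 and 2 were left out (−0.19 and −0.03), whereas the median of the AT2 list kept its sign in all 24 alternative fits (0.02 to 1.01). Over all libraries 9 of the 29 AT2 genes were called higher in the active line, against 5.18% of all genes.

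AT1 genes did not differ in one direction. Ager, the receptor RAGE that marks AT1 cells, lay at 1363, 2001, 979.7 and 3793 CPM in the active controls and at 984, 831, 4829 and 2170 CPM in the deleted controls. Hopx lay at 258, 546, 128 and 392 CPM against 207, 200, 925 and 418 CPM, and the water channel Aqp5 at 211, 305, 221 and 760 CPM against 197, 205, 683 and 413 CPM. All 3 were highest or next to highest in deleted control 3. Of 29 AT1 genes 6 were on the higher side and 23 on the lower (median −0.16, 0 called), and the median was positive in 5 of 24 alternative fits.

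Genes of airway secretory cells lay mostly higher in the deleted controls. Of 20 club and goblet genes, 19 were on the lower side in the active controls (median −1.10, negative in all 24 alternative fits), with 0 called and 7 at an unadjusted p under 0.05, and 5 were called lower over all libraries (5.65% of all genes were). Scgb1a1, the main secretory protein of club cells, lay at 2802, 3948, 2676 and 8839 CPM in active controls 1 to 4 and at 14430, 6098, 34650 and 16860 CPM in deleted controls 1 to 4. Only active control 4 reached the range of the deleted controls (−1.96 ± 0.62 SE, adjusted p = 0.298). Gabrp, a GABA receptor subunit of airway epithelium, lay at 32.6, 32.7, 24.4 and 47.1 CPM against 177, 49.0, 163 and 84.3 CPM (−1.80 ± 0.42 SE, adjusted p = 0.277), with no overlap. Ciliated cell genes gave no common direction (12 higher and 8 lower of 20), and Foxj1, the master factor of motile cilia, ran from 66.6 CPM in deleted control 2 to 660 CPM in deleted control 3.

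Of the mesenchymal and lining cells, the 9 mesothelial genes were all on the higher side in the active controls (median 1.22, positive in all 24 alternative fits), with 0 called and 7 at an unadjusted p under 0.05. Upk3b lay at 237, 393, 368 and 132 CPM against 50.7, 138, 74.5 and 88.0 CPM (1.66 ± 0.41 SE, adjusted p = 0.277). Msln, mesothelin, lay at 233, 403, 338 and 202 CPM against 85.2, 203, 152 and 121 CPM. In both, active control 4 fell just under deleted control 2. Fibroblast genes were mixed (6 higher and 16 lower of 22), with Col1a1 at 464 to 1172 CPM against 613 to 1194 CPM. Among pericyte genes Rgs5 (9.16 to 32.0 CPM against 2.17 to 9.37 CPM) and Higd1b (0.935 to 2.67 CPM against 2.20 to 14.9 CPM) lay in opposite directions.

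The summed level of interferon-stimulated genes was 1248, 700.4, 535 and 998 CPM in active controls 1 to 4 and 2143, 1678, 1070 and 956 CPM in deleted controls 1 to 4, highest in deleted controls 1 and 2. Many genes induced by interferons hold a short repeat, the interferon-stimulated response element, in their promoters. Of 21 list genes with a promoter entry in RefSeq (GRCm38.p6), 11 (52.4%) held GAAA, 2 bases of any kind and GAAA, in that order, on either strand in the 250 bases before the start, against 3.2% of 11615 tested genes with an entry and 2.98% of all 32851 entries. Matches to the motif overlap each other in some promoters. The stretches around 1 match each in 5 of these genes are shown because their levels follow below, with the match in capitals and the sequence read in the direction of the gene.
Isg15 (chr4:156200866-156200905, minus strand): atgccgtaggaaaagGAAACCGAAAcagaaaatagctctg
Ifit1 (chr19:34640789-34640828, plus strand): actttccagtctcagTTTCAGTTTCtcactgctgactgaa
Oas3 (chr5:120777710-120777749, minus strand): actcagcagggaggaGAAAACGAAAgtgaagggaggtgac
Bst2 (chr8:71537572-71537611, minus strand): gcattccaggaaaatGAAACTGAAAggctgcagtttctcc
Gbp3 (chr3:142559984-142560023, plus strand): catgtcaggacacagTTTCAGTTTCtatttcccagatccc

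Isg15, a ubiquitin-like modifier, lay at 22.4, 3.32, 1.07 and 2.78 CPM in active controls 1 to 4 and at 22.3, 11.1, 3.05 and 1.83 CPM in deleted controls 1 to 4. Active control 1 and deleted controls 1 and 2 were the high ones. Ifit1, which binds foreign RNA, followed with 49.3, 10.6, 3.05 and 4.54 CPM against 46.3, 23.1, 12.9 and 4.46 CPM, and so did the tetherin gene Bst2 with 28.5, 13.6, 7.06 and 17.1 CPM against 45.8, 39.3, 15.2 and 13.97 CPM. Oas3, an RNA-sensing synthetase, lay at 3.27, 0.755, 0.143 and 0.220 CPM against 11.9, 30.7, 0.171 and 0.0619 CPM. The guanylate-binding protein gene Gbp3, also induced by interferon gamma, lay at 17.1, 5.40, 6.73 and 3.44 CPM against 93.1, 48.4, 3.73 and 3.72 CPM, so that active control 1 was well below deleted controls 1 and 2.

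Of the 31 genes of the list 29 were on the lower side in the active controls (median −0.89), with 0 called by edgeR and 2 at an unadjusted p under 0.05, and the median was positive without deleted controls 1 and 2. Endothelial and leukocyte RNA was high in deleted controls 1 and 2, and endothelial sums were 502, 280, 790 and 282 CPM in active controls 1 to 4. The part of such RNA in the interferon values of any control was not tested.

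Genes of cell division gave the widest range within the active line. All 30 were on the higher side in the active controls (median 0.72), with 0 called and 1 at an unadjusted p under 0.05, and 14 were called higher over all libraries (5.18% of all genes were). Their summed level was 573, 161, 310 and 1266 CPM in active controls 1 to 4 and 435, 576, 245 and 184 CPM in deleted controls 1 to 4. Active control 4 was the highest of the 8, and without it the median was negative. Bub1, a kinase of the spindle checkpoint, was the member whose groups did not overlap, at 10.5, 6.18, 6.78 and 14.2 CPM against 4.82, 5.07, 2.57 and 3.38 CPM (1.23 ± 0.38 SE, adjusted p = 0.287).

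All 30 sterol and fatty acid synthesis genes were on the higher side in the active controls (median 0.33), with 0 called and 6 at an unadjusted p under 0.05. Fads2, a fatty acid desaturase, was tight in each group, at 65.9, 63.5, 68.8 and 62.5 CPM against 33.2, 30.1, 37.3 and 45.2 CPM (0.83 ± 0.14 SE, adjusted p = 0.236). Scd1, another desaturase and abundant in AT2 cells, lay at 12380, 22990, 14080 and 9586 CPM against 4069, 3170, 5020 and 9444 CPM.

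Genes that respond early to cell dissociation varied in both lines. Fos lay at 479, 1214, 428 and 146 CPM in the active controls and at 66.1, 36.7, 198 and 58.8 CPM in the deleted controls. Fosb lay at 368, 764, 213 and 31.2 CPM against 11.5, 5.42, 45.2 and 4.68 CPM, and Jun at 1016, 1624, 929 and 731 CPM against 412, 268, 572 and 300 CPM with no overlap (1.46 ± 0.32 SE, adjusted p = 0.277). Of the 26 genes of the list 18 were on the higher side and 8 on the lower (median 0.19), with 0 called, 7 at an unadjusted p under 0.05 on the higher side and 2 on the lower. Sgk1, an early target of glucocorticoids and stress, is not in that list but among 14 glucocorticoid response genes. It was lower in the active controls, at 19.1, 27.7, 19.2 and 17.96 CPM against 127, 148, 29.5 and 39.1 CPM (−2.08 ± 0.54 SE, adjusted p = 0.277). Of those 14 genes 6 were on the higher side and 8 on the lower (median −0.19), with 0 called and 1 at an unadjusted p under 0.05.

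Clock output genes set deleted controls 3 and 4 apart. Dbp lay at 33.6 to 43.1 CPM in the active controls and at 36.3, 29.1, 99.3 and 129 CPM in deleted controls 1 to 4, and Nr1d1, a repressor within the clock, at 43.1 to 102 CPM against 86.2, 82.3, 193 and 242 CPM. Arntl, which cycles opposite to Nr1d1, stayed at 13.2 to 18.9 CPM in all 8. The hour of collection is not in the labels, and 0 of 18 clock genes were called by edgeR, with 2 at an unadjusted p under 0.05.

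The Y-linked gene Ddx3y was present in 6 controls and varied among them. It lay at 80.7, 82.8 and 84.2 CPM in active controls 1 to 3, at 88.3 and 87.4 CPM in deleted controls 1 and 2 and at 52.8 CPM in deleted control 4. The 5 Cre-carrying libraries with Y-linked reads held 36.3 to 47.5 CPM. The Y-linked Eif2s3y was also higher in active controls 1 to 3 and deleted controls 1 and 2, at 31.1 to 43.2 CPM, than in deleted control 4. It held 27.04 CPM in deleted control 4, within the 22.05 to 29.2 CPM of those Cre-carrying libraries. Deleted control 1, the highest for Ddx3y, was the lowest of the higher controls for Eif2s3y (31.1 CPM). Uty was also lowest of these controls in deleted control 4 (9.85 CPM against 11.6 to 18.1 CPM). Kdm5d, another Y-linked gene, was not lowest in deleted control 4, as deleted controls 2 and 4 held 20.1 and 21.2 CPM. Cre-carrying deleted libraries 2, 4 and 5 held 22.2, 22.1 and 22.3 CPM.

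The spread among controls was wide in both lines. The common biological coefficient of variation, the part of the spread between libraries that exceeds counting error, was 37% over the 4 active controls and 48.7% over the 4 deleted controls. Within clusters it was 25.4% (active controls 1 to 3), 26% (deleted controls 1 and 2) and 27.3% (deleted controls 3 and 4). The SD of log2 CPM exceeded 1 for 1646 genes (10.4%) in the active controls and for 2603 genes (16.4%) in the deleted controls, with medians of 0.33 and 0.42 over all genes.

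Active controls 1 and 3 were the closest pair, with 6.26% of genes differing over 2-fold and a correlation of 0.981 across genes. By this share deleted controls 2 and 3, of the same genotype, were the farthest, at 31.8% (correlation 0.853). Active control 4 and deleted control 2 came next, at 31.7%, and had the lowest correlation (0.834). By share, active control 1 differed less from deleted control 1 (15.4%) than from active control 4 (24.8%), while the correlations were nearly equal (0.933 and 0.935). Active control 4 was closest to a Cre-carrying active library (0.98 with library 2), deleted control 3 to Cre-carrying deleted library 1 (0.976) and deleted control 4 to Cre-carrying deleted library 4 (0.975).

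**Figure D5:**
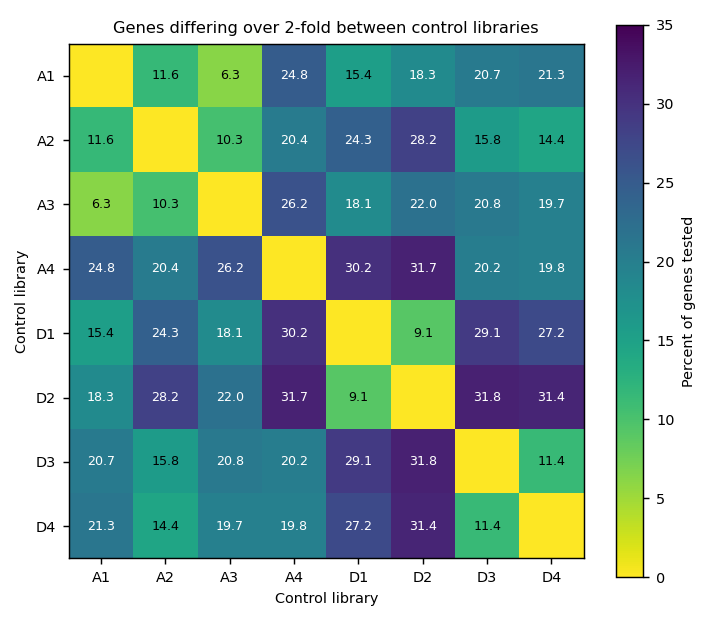
Percent of the 15832 tested genes that differ over 2-fold between each pair of control libraries (A, active line; D, deleted line; replicate number). Small values lie within A1 to A3, within D1 and D2 and within D3 and D4, and the largest set D2 against D3 (31.8%) and A4 (31.7%).

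The genes with the largest SD among the active controls (mean of at least 10 CPM) were the Y-linked Eif2s3y, Ddx3y, Kdm5d and Uty, then Gm11127, Xist, Ptprb, Esr1, Cdh5 and 2410017I17Rik, of which Ptprb and Cdh5 are endothelial. Among the deleted controls they were Gbp4, Eif2s3y, Ddx3y, Gm12250, Slfn4, Oas3, Ms4a1, Kdm5d, Pyhin1 and Slfn1. Gbp4 and Oas3 are examples of interferon-induced genes among them. Gbp4 lay at 284, 90.5, 0.912 and 0.217 CPM in deleted controls 1 to 4, and Slfn4 at 17.5, 61.7, 0.0570 and 0.929 CPM. Leaving out the control of each line with Esr1 reads gave 1 call between the lines, and leaving out deleted controls 1 and 2 gave 0 by edgeR, with 972 and 2858 genes at an unadjusted p under 0.05.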

How the data were processed

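RNA from Epcam-selected lung cells was counted per gene by the authors, and the deposited tables hold raw read counts (23478 gene rows per line). The submitters' processing notes list, without versions, Bowtie2, Trim Galore, HOMER, Cufflinks and DESeq, and build mm10. For the counting program, annotation and strand setting, nothing was given in the sources used here. Tables were joined by gene name; 27 names had become dates. After filterByExpr and TMM scaling, groups were tested with edgeR 4.0.16 (robust quasi-likelihood, two-sided, R 4.3.3), with Benjamini-Hochberg adjusted p under 0.05 over all genes tested as the threshold for a call. CPM used TMM factors over 19 libraries. Alternatives used DESeq2 1.42.0, limma 3.58.1 (voom with sample weights), RLE scaling, no filter, covariates and fewer libraries. Library clusters came from average linkage on 1 minus the correlation of log2 CPM, within each line, and the smaller cluster of each line got the same covariate value. Members, lists and named genes were chosen with earlier results of these data known. Named genes followed rules of size (mean of at least 4 CPM, or 10 CPM for spread), smallest p or list membership (no such limit), besides a fixed set of floxed, sort and marker genes; others were chosen after their values were seen. ATAC files were not used.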

Additional observations from a re-analysis of the deposited data

Results flagged for a closer look

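Within each group of 4 controls, single libraries were compared with the other 3 on the log2 scale. The set of genes compared does not hold every gene named above. Groups with very low values throughout were left out, and so was Ddx3y. That gene stood far apart in active control 4 (0.0550 CPM against 80.7 to 84.2 CPM) and deleted control 3 (0.114 CPM against 52.8 to 88.3 CPM). With these left out, the 16 of 186 values flagged beyond Dixon's 95% limit for 4 samples are listed. Chance alone marks about 1 in 20 groups, but many of these genes were named because 1 library had been seen to stand apart, so their number cannot be set against that rate.

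Active control 4 stood apart for most of them. In that library Gm11127 lay at 232 CPM against 0.835 to 1.48 CPM in the other active controls, 2410017I17Rik at 58.2 CPM, H2-K2 at 99.1 CPM, H2-Q1 at 36.5 CPM, H2-Q4 at 470 CPM and H2-DMb2 at 63.2 CPM, all above the rest. Xist was at 445 CPM there and at 322 CPM in deleted control 3. Cyp2f2 of club cells was high in active control 4 (1204 CPM against 566 to 621 CPM), while Acta2 of smooth muscle (172 CPM against 341 to 390 CPM) and Ngfr (0.0825 CPM against 0.837 to 1.21 CPM) were low.

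In active control 1, Mob1b was low (52.9 CPM) and Gbp2b, an interferon-induced gene, was high (3.08 CPM against 0.525 to 0.688 CPM). In active control 2, Sgk1 was high (27.7 CPM). In deleted control 2, H2-D1 (356 CPM against 196 to 207 CPM) and H2-Q1 (17.8 CPM) were high.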

How the results depend on the processing

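Between the controls, the 3 calls became 799 with DESeq2, 5 with limma-voom and sample weights, and 314 when the contrast was taken from a fit of all 19 libraries. There were 0 with the replicate block, 0 with a sex covariate, 0 without deleted controls 1 and 2, 0 without control 2 of both lines and deleted control 1, and 1 without control 2 of both lines. In the order given, the counts of 0 by edgeR came with 1332, 2341, 2858 and 2159 genes at an unadjusted p under 0.05. Fits chosen after the data were seen gave 731 (cluster covariate), 198 (cluster and sex covariates), 1972 (active controls 1 to 3 against deleted controls 1 and 2), 5 (active control 4 against deleted controls 3 and 4, the lone library taken to vary like the others) and 2739 (without active control 4 and deleted controls 1 and 2). Leaving out 1 library gave 0 to 3 calls. Over all libraries the 1766 calls became 2876 with DESeq2, 818 with the replicate block and 2806 without deleted controls 1 and 2, and 1270 to 1714 without 1 control. Between the Cre-carrying groups the 805 calls became 2018 with DESeq2, 3225 with limma-voom and 0 with the replicate block (2374 at an unadjusted p under 0.05), and 264 to 2781 without 1 library. The highest of these came without active library 1, which lacks Esr1 reads. The labels give the lines the same replicate numbers, but same-numbered controls did not deviate together (correlations of deviations 0.493, −0.294, −0.51 and 0.246), so the numbers are not treated as pairs. RLE scaling and dropping the filter left the count of calls between the controls at 3. The cause of these shifts was not tested.

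Nrn1, Zfp949 and BC018473 were higher in the active controls in all 24 alternative fits and passed the threshold in 11, 11 and 7 of them. Directions turned for Pecam1 (0.90 without deleted controls 1 and 2, 1.2 without control 2 of both lines and deleted control 1, 0.19 with an endothelial covariate, 1.32 without active control 4 and deleted controls 1 and 2), for Sftpc (−0.19 without deleted controls 1 and 2, −0.21 with the endothelial covariate, −1.2 without active control 4 and deleted controls 1 and 2, and −0.51 to 1.09 without 1 library, negative without active control 4), for Abca3 (−0.0288, −0.0772, −0.000222 and −0.29 in the order given for Pecam1) and for Epcam (−0.0374 without active control 4 and deleted controls 1 and 2). Depth limits statements on genes near 0 CPM, where intervals cover counting error only.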
